A study of Homo sapiens with 22 samples.

Results

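Of the 33694 genes counted, 7 genes of the retinoic acid pathway were followed through the reprogramming of human fibroblasts: CYP26A1, DHRS3, ALDH1A2, CRABP1, CRABP2, RARB and RARRES2. They were taken by symbol, and all 7 were among the 21179 genes that passed the filter on low counts. BJ cells, an established line of foreskin fibroblasts, were grown in microfluidic channels and reprogrammed towards pluripotency with RNA encoding POU5F1, SOX2, KLF4, MYC, LIN28 and NANOG. Cells were sampled untransfected on day 0 (D0, the control) and on D3, D5, D7, D9, D11, D13 and D15, with 2 pools per day (A and B), each made from 4 chips, and the RNA of single cells was counted by its unique molecular identifiers (UMIs). The fibroblasts were cultured in medium with fetal bovine serum, and reprogramming medium was given from day 1. In comparisons with D0, transfection and this change of medium thus cannot be told apart. The 8 transfections were given in Pluriton medium, and the medium was iPSBrew from D9, so that the end of transfection and the second change of medium cannot be told apart. All groups were 1 cell line, and pools of 1 day shared the line and the protocol, so the tests measure the spread between pools of chips and not between donors.

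Retinoic acid is made from vitamin A in steps: retinol is oxidized to retinaldehyde, and retinaldehyde dehydrogenases oxidize that to retinoic acid. Binding proteins carry it in the cytosol, nuclear receptors bound to DNA respond to it, and enzymes of the CYP26 family break it down. In early embryos it patterns the body axis, and CYP26A1 marks tissues that are kept free of it.

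Levels are given as CPM, the UMIs of a gene per 1000000 UMIs of the cells summed. They are counts of transcript 3' ends and are compared between pools for 1 gene, not between genes. Of 44197 barcodes, 41975 cells were kept after those with few genes or many mitochondrial UMIs were left out, with 571 to 6142 per pool. Between the aliquots that made up 6 of the pools, levels differed by up to 2.24 times for RARRES2 and 2.22 times for CRABP2, both on D9, by up to 1.77 times for CRABP1 and 1.81 times for DHRS3, and by more for members with few UMIs there: 3.12 times for RARB, 3.47 times for ALDH1A2 and 3.80 times for CYP26A1 (on D5). The pools held between 33181614 and 180056814 UMIs, and the median depth of a cell lay between 23717 and 80168 UMIs. The test between days was edgeR's quasi-likelihood test on pool sums. A gene was called where its log2 fold change exceeded 0.25 in size and its p, adjusted by Benjamini-Hochberg over all genes tested, stayed under 0.01. The summed level of 16 fibroblast markers fell from between 13192 and 13323 CPM on D0 to between 1167 and 1386 CPM on D15, and that of 15 markers of pluripotent cells rose from a lowest of 46.8 to a highest of 4692 CPM over the pools. Of the lists for other cell types, the neural list summed to 5.58 to 17.8 CPM over the pools, and the trophoblast and amnion list to 97.0 to 102 CPM on D0, above the pluripotent cell markers of that day, and to 25.5 to 26.1 CPM on D15. In sums over a pool, fewer cells of a type and less RNA per cell cannot be told apart.

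The genes lie on 5 chromosomes of GRCh38 (GENCODE v44 coordinates). CYP26A1 (ENSG00000095596) spans chr10:93073475-93077885 on the plus strand and RARB (ENSG00000077092) chr3:24687887-25597932 on the plus strand. CRABP1 (ENSG00000166426, chr15:78340353-78348225, plus) and ALDH1A2 (ENSG00000128918, chr15:57953424-58497866, minus) share chromosome 15. CRABP2 (ENSG00000143320, chr1:156699606-156705816, minus) and DHRS3 (ENSG00000162496, chr1:12567910-12618210, minus) share chromosome 1, and RARRES2 (ENSG00000106538) spans chr7:150338317-150341662 on the minus strand. ALDH1A2 overlaps LIPC-AS1 on its own strand and ALDH1A2-AS1, AQP9 and LIPC on the other, so its counts are less certain than those of the other members.

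Retinoic acid receptors bind DNA at pairs of hexamers, and the 250 bases before each annotated start (RefSeq, GRCh38.p14) were searched on both strands for the hexamer AGGTCA and for its variants with the letters AGTTCA, with the letters GGGTCA and with the letters GGTTCA. All 7 genes matched RefSeq entries, with 14 windows between them. A hexamer occurred in 9 of the 14 windows, against 33.8% of all 35116 windows. A direct repeat of 2 hexamers with a spacer of 5 bases occurred in 1 window of RARB and 1 of CYP26A1, and in 26 of all windows (0.0740%). Repeats with spacers of 1 or 2 bases occurred in no window of the 7 genes. Spacers of 1, 2 and 5 bases were set for the search. A repeat with no spacer was not part of that setting and was added for the repeats shown here, so its share is a description only. The repeat with no spacer occurred in the window of RARRES2 and in 51 of all windows (0.145%). The 3 repeats are shown because they are what the promoters of the receptor, the breakdown enzyme and RARRES2 hold. Capitals mark the hexamers, each line reads 5′ to 3′ along the strand of its gene, and the hexamers of CYP26A1 match on the opposite strand.
RARB, chr3:25428204-25428232, plus strand: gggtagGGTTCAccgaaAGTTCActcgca
CYP26A1, chr10:93073797-93073825, plus strand: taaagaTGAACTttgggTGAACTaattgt
RARRES2, chr7:150341817-150341840, minus strand: cggccaGGGTCAGGGTCAtgaggg
The repeat of RARB lies 53 to 37 bases before a start at position 25428263, that of CYP26A1 90 to 74 bases before a start at 93073893, and that of RARRES2 205 to 194 bases before a start at 150341629. In GENCODE v44 the stretch of CYP26A1 also lies in an untranslated exon of 1 transcript that starts upstream, and that of RARB in an untranslated part of the first exon of 3 transcripts and within an intron of others. A match of letters is a description of the window, not a site of binding.

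CYP26A1, the cytochrome P450 that hydroxylates retinoic acid and starts its breakdown, was close to undetected until D5 and rose on D7 and D9. On D0 it had 4 and 7 UMIs (0.0240 and 0.0476 CPM in pools A and B), on D3 2 and 0 UMIs, and on D5 2 and 0 UMIs. On D7 it stood at 1.11 and 1.23 CPM (158 and 168 UMIs), on D9 at 14.0 and 22.6 CPM, and on D11 at 71.1 and 104 CPM. It was at 105 and 30.5 CPM on D13 and at 8.77 and 23.4 CPM on D15. Both pools of D7 were above every pool of D0 to D5 and below every later pool, while D11 overlapped D13 and D9 overlapped D15. The level on D7 was 70.3 times that on D5 by summed UMIs (326 against 2, 95% exact interval 19.3 to 583, counting error only). The UMIs of D7 were in few cells: the 5% of cells with most of them held all of them, and single cells held 34 of the 158 UMIs of pool A and 47 of the 168 of pool B. The rise from D5 to D7 was 6.11 ± 1.07 on the log2 scale (SE, adjusted p = 0.00581), and that from D7 to D9 was 3.94 ± 0.58 (adjusted p = 0.000584). The call on D7 did not hold with any 1 pool of D5 or D7 left out (adjusted p 0.0168 to 0.133), and that on D9 did not hold without either pool of D7 (0.0103 and 0.0147). From D9 to D11 the value was 2.17 ± 0.53 (adjusted p = 0.0181) and from D13 to D15 it was −2.11 ± 0.53 (adjusted p = 0.0513). Neither was past the threshold with edgeR, and DESeq2 called both (adjusted p = 0.00105 and 0.00504).

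DHRS3, which reduces retinaldehyde back to retinol and so lowers the supply of retinoic acid, was higher on each day sampled up to D9. Of these steps edgeR called only that from D3 to D5. Its levels were 1.75 and 1.91 CPM on D0, 2.42 and 2.41 on D3, 5.50 and 5.84 on D5, 8.66 and 8.89 on D7 and 12.1 and 12.5 on D9. They were then 5.99 and 6.88 CPM on D11, 6.402 and 5.70 on D13 and 9.13 and 9.77 on D15. From D0 to D9 each day sampled was above the one before without overlap, and D9 was above all other pools. The steps to D3, D7 and D9 did not pass the test with edgeR (adjusted p = 0.0368, 0.0612 and 0.0917). DESeq2 called those to D7 and D9 (adjusted p = 0.000508 and 0.00321). The rise from D3 to D5 was 1.00 ± 0.18 (adjusted p = 0.00424) and the fall from D9 to D11 was −1.02 ± 0.18 (adjusted p = 0.00221). Each of these calls was lost when any 1 pool of its own days was left out (adjusted p 0.0176 to 0.0329). That from D3 to D5 was also lost without pool A of D0 (adjusted p = 0.0112) and without pool A or pool B of D9 (0.0126 and 0.0125). With no filter on genes (0.0152) or with only the pools of the days compared (0.144) it was lost as well.

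ALDH1A2, the retinaldehyde dehydrogenase of early embryos, was low throughout and highest on D5 and D7. Its pools held 0.205 to 0.298 CPM on D0 and D3, 3.46 and 2.21 on D5, 2.02 and 4.23 on D7, 1.06 and 1.21 on D9 and 0.324 to 1.01 from D11 on. The days D5 and D7 overlapped each other and lay above all other pools. The rise from D3 to D5 was 3.28 ± 0.45 (adjusted p = 0.000653). It was not called without pool B of D3 (adjusted p = 0.0127). The value from D7 to D9 was −1.48 ± 0.40, not past the threshold with edgeR (adjusted p = 0.0237) but called by DESeq2 (adjusted p = 0.00761).

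**Figure D1:**
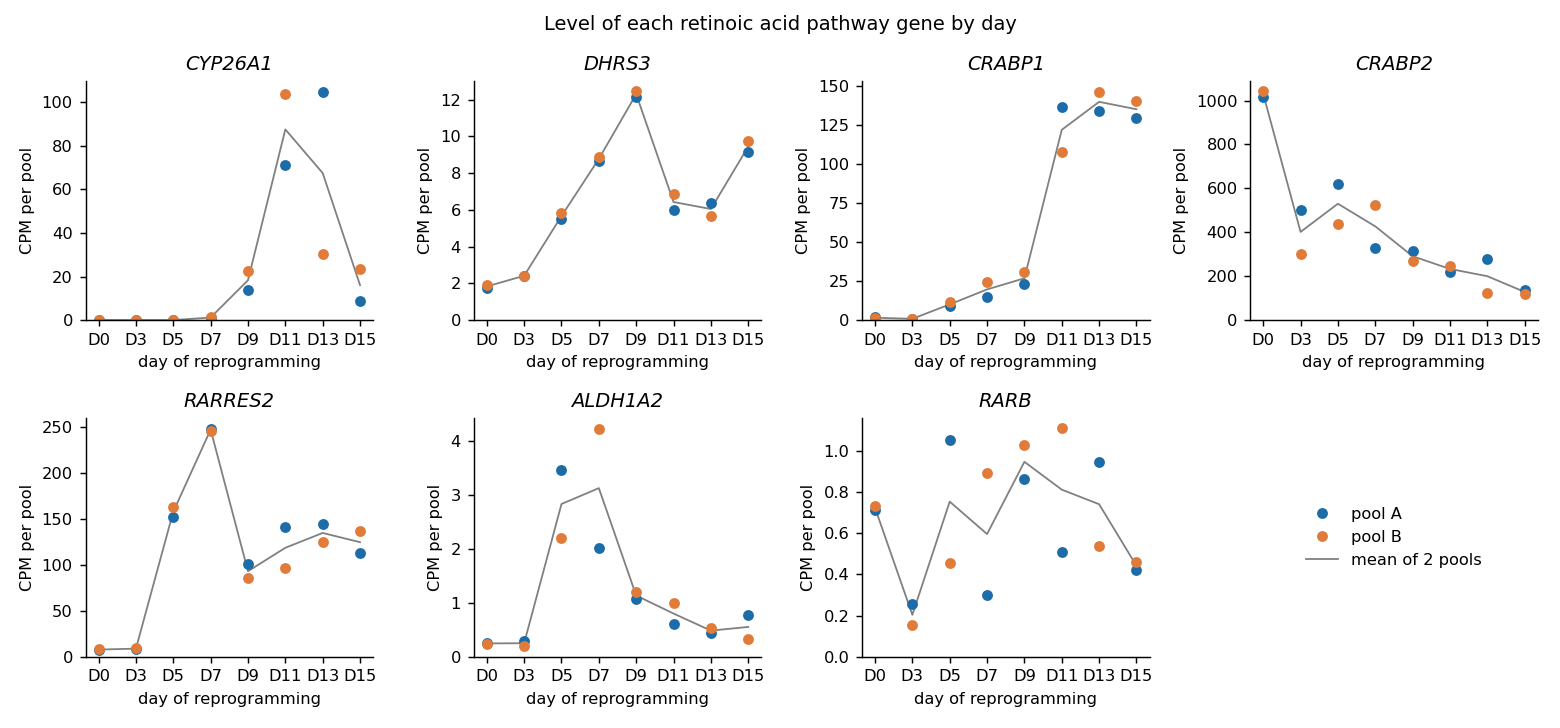
Level of each member (CPM per pool, linear scale from 0, 1 panel per gene) by day of reprogramming, with 1 point per pool and a line through the mean of the 2 pools of a day. CYP26A1 stands at 1.11 and 1.23 CPM on D7, barely above 0 on this scale, and peaks on D11 and D13. RARRES2 steps up on D5. CRABP1 has a mean of 10.0 CPM on D5, low on this scale. Its larger step is from 26.8 CPM on D9 to 122 CPM on D11. CRABP2 falls from 1030 CPM on D0 to 128 CPM on D15, and DHRS3 peaks on D9.

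CRABP1, a cytosolic protein that binds retinoic acid, had rises called by edgeR at 2 steps, to D5 and to D11. It stood at 1.76 and 1.25 CPM on D0 and 0.948 and 0.689 on D3, then at 8.73 and 11.4 on D5, 15.1 and 24.2 on D7 and 22.8 and 30.7 on D9. From D11 on it stood at 136 and 107, 134 and 146, and 129.7 and 140.4 CPM. The 6 pools of D11 to D15 overlapped each other and lay above all earlier pools. The rise from D3 to D5 was 3.40 ± 0.32 (adjusted p = 3.05e-05) and that from D9 to D11 was 2.11 ± 0.29 (adjusted p = 0.000556). The second was not called without pool A of D9 (adjusted p = 0.0185). D7 also lay above D5 without overlap, but edgeR did not call that step (0.99 ± 0.29, adjusted p = 0.0827).

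CRABP2, its close relative, which hands retinoic acid to the receptors in the nucleus, was the member with the opposite course. It was highest in the fibroblasts of D0, at 1018 and 1043 CPM, and stood at 502 and 302 CPM on D3, 621 and 439 on D5 and 330 and 524 on D7. It stood at 314 and 268 CPM on D9, 218 and 248 on D11, 278 and 122 on D13 and 138 and 118 on D15. D0 was above all other pools, D3, D5 and D7 overlapped each other, and D13 overlapped D9, D11 and D15. No step between neighbouring days was called by edgeR. From D0 to D3 the value was −1.23 ± 0.33 (adjusted p = 0.0112 with edgeR and 0.000848 with DESeq2), and D15 was lower than D0 by −3.26 ± 0.35 (adjusted p = 2.67e-06).

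RARB, a nuclear receptor for retinoic acid whose own gene is a known target of the acid, had no change called by edgeR between any days. Its level lay between 0.152 and 1.11 CPM in all 16 pools, with the mean of D3 (0.204 CPM) the lowest. With the days ranked by mean level, each overlapped the next, except that D15 lay above D3. In order of time, D3 lay below D0 and D5 without overlap, and D15 lay below D13. The value from D0 to D3 was −1.73 ± 0.54 (adjusted p = 0.0260 with edgeR and 0.00611 with DESeq2), and that from D0 to D15 was −0.94 (adjusted p = 0.142).

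RARRES2 encodes chemerin, a secreted attractant of immune cells and adipokine, and takes its name from its response to a synthetic retinoid. It stood at 7.64 and 8.06 CPM on D0 and 8.40 and 9.32 on D3, then at 152 and 163 on D5 and 248 and 246 on D7. After that it stood at 100.4 and 85.7 CPM on D9, 141 and 96.4 on D11, 145 and 124 on D13 and 113 and 136 on D15. D7 was above all other pools, D5 above all pools but those of D7, and the days from D11 to D15 overlapped. The rise from D3 to D5 was 3.93 ± 0.24 (adjusted p = 1.93e-06), the largest of the 4 called on that day. The fall from D7 to D9 was −1.43 ± 0.21 (adjusted p = 0.000656), and it was not called without pool B of D9 (adjusted p = 0.0192).

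By day, edgeR called 4 of the 7 members from D3 to D5, all upward (RARRES2, CRABP1, ALDH1A2 and DHRS3), where 2.85% of all 21179 genes were called. Only CYP26A1, 1 of 7, was called by edgeR from D5 to D7, upward (1.41% of all genes). From D7 to D9 (6.85%) CYP26A1 rose and RARRES2 fell. From D9 to D11 (4.95%) CRABP1 rose and DHRS3 fell. In these 4 steps DESeq2 called 4, 2, 4 and 3 members. The shares of all genes in this paragraph are those of edgeR, and those of DESeq2 are not given. None was called by edgeR from D0 to D3 (19.0% of all genes), where 4 members had an unadjusted p below 0.05 and DESeq2 called 2, CRABP2 and RARB. None was called from D11 to D13 (0.321%), with 0 at an unadjusted p below 0.05 and 0 by DESeq2. None was called from D13 to D15 (0.137%), with 3 at an unadjusted p below 0.05 and 2 by DESeq2, CYP26A1 and DHRS3. The median log2 value of the 7 members was 1.72 from D3 to D5, against −0.08 for all genes, and −0.76 from D0 to D3, against 0 for all genes.

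Between the ends of the course, 5 of the 7 members were called on D15 against D0, 4 up and CRABP2 down, against 51.5% of all genes, and the median log2 value was 2.12 against 0.04 for all genes. The share of called members was not far from the background. CYP26A1 was higher by 8.57 ± 0.80 on the log2 scale (adjusted p = 6.75e-07), CRABP1 by 6.23 ± 0.35 (adjusted p = 7.49e-09) and RARRES2 by 3.74 ± 0.24 (adjusted p = 1.91e-08). DHRS3 was higher by 2.12 ± 0.18 (adjusted p = 3.32e-07), and the value of ALDH1A2 was 0.82 (adjusted p = 0.143). The fold of CYP26A1 rests on 11 UMIs on D0.

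The days of transfection, D3 to D7, were set against D0 with 5 of 7 members called (33.5% of all genes), and the days after it, D9 to D15, against D3 to D7 with 6 of 7 (47.3%). In the first, RARRES2 (3.15), ALDH1A2 (2.37 ± 0.39), CRABP1 (1.83 ± 0.26) and DHRS3 (1.42 ± 0.16) were higher and CRABP2 was lower (−1.21 ± 0.25, adjusted p = 0.00123). CRABP2 was not called there without pool A or pool B of D0 (adjusted p = 0.0151 and 0.0137), and CRABP1 was not called without D7 (0.94, adjusted p = 0.0119), an alternative chosen after seeing the data. In the second, CYP26A1 (9.16 ± 0.50), CRABP1 (3.87 ± 0.18), RARRES2 (0.58 ± 0.12) and DHRS3 (0.58 ± 0.096) were higher, and CRABP2 (−1.30 ± 0.17) and ALDH1A2 (−1.06 ± 0.23) were lower. The rise of RARRES2 rested on D3: with D3 left out, also chosen after seeing the data, its value was −0.84 (adjusted p = 7.58e-05), and that of DHRS3 was 0.13 (adjusted p = 0.321).

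The shares of cells that carried a member were taken after every cell was thinned to 5000 UMIs. No cell kept was shallower. A UMI in a cell can also come from free RNA of the pool, so a share is one of cells with a UMI and not of cells that express the gene. CYP26A1 was found in 0.0163% and 0.0647% of cells on D0, in no cell of D3 or D5 after thinning, in 0.290% and 0.160% on D7, 3.56% and 5.57% on D9, 15.5% and 17.3% on D11, 11.98% and 8.75% on D13 and 1.75% and 5.65% on D15. In the somatic marker-high cells of D11, described further on, the share for CYP26A1 was 3.93% and 2.92%, against 19.4% and 23.2% in the developmental marker-high cells, and these 2 classes had median depths before thinning of 44517 and 33059 against 69215 and 52873 UMIs. CRABP1 was found in 0.73% and 0.58% of cells on D0, 38.2% and 25.1% on D11 and 45.0% and 45.4% on D15. RARRES2 went from 2.90% and 2.74% on D0 to 28.5% and 32.9% on D5 and 61.3% and 42.3% on D7.

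CRABP2 was found in 97.0% and 96.8% of cells on D0 and in 38.0% and 38.4% on D15. DHRS3 was found in 4.82% and 6.35% of cells on D9, against 0.86% and 1.12% on D0. ALDH1A2 was found in at most 2.88% of cells and RARB in 0.13% to 0.76%. Without thinning, CYP26A1 was seen in 46.9% of the cells of D11 and RARRES2 in 92.0% of those of D7, so the shares hold for this depth only.

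**Figure D2:**
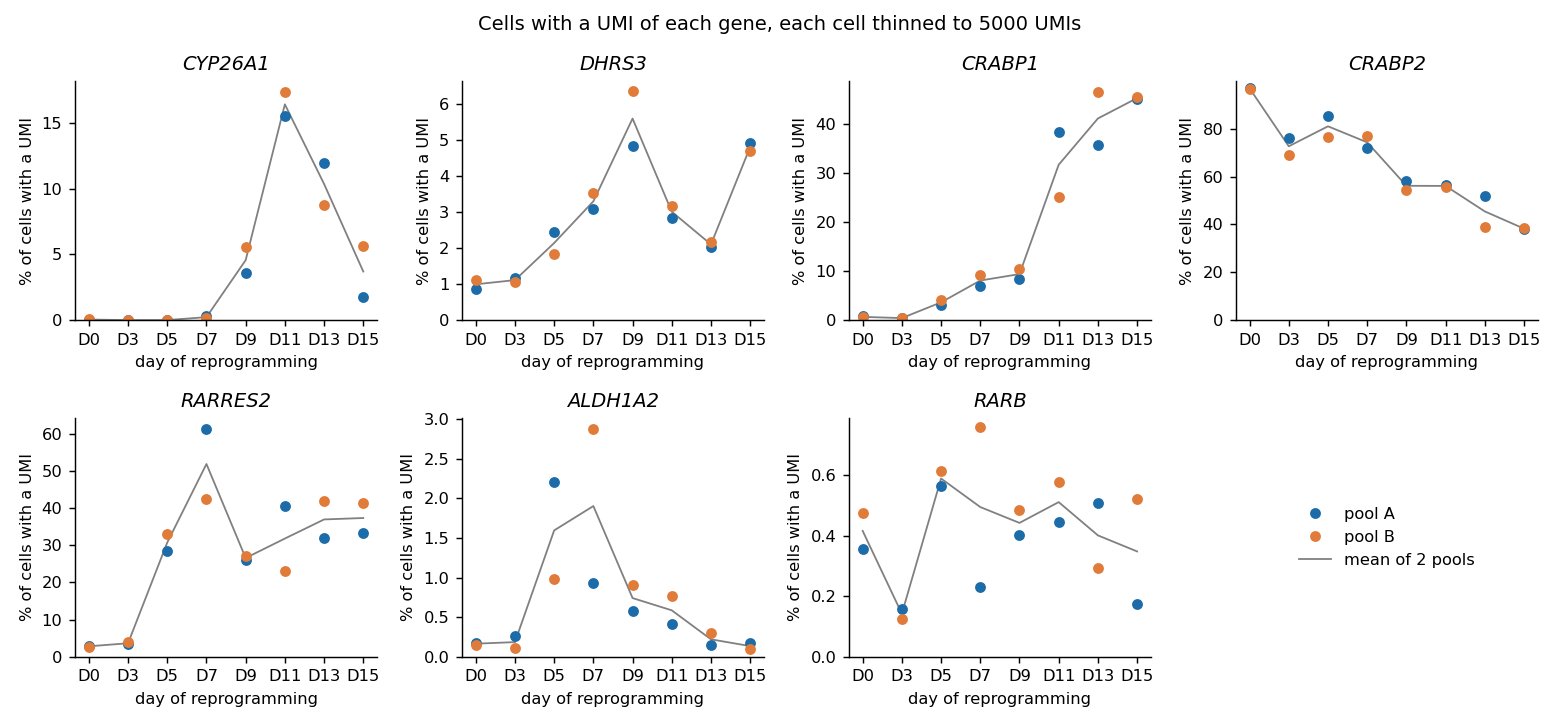
Share of cells with at least 1 UMI of each member (percent) by day, each cell thinned to 5000 UMIs, with 1 point per pool and a line through the mean. CRABP2 falls from 97.0% and 96.8% on D0, RARRES2 has its highest mean on D7 and CRABP1 on D15, and CYP26A1 peaks at 15.5% and 17.3% on D11.

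To ask which cells of a pool carried the members, cells were grouped by UMIs of marker lists that hold no member and no transfected factor. Of the 17727 cells of D9 to D15, 10648 were high in markers of pluripotent cells and low in fibroblast markers (developmental), 3442 were the reverse (somatic) and 3637 (20.5%) lay between. The classes are ranges of a score and not cell types: 1463 cells lay within 2 UMIs of the developmental limit and 557 within 4 UMIs of the somatic limit. All 7 members were called between the classes in the 8 pools of D9 to D15, with the pool as a block, against 67.1% of the 15912 genes tested.

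In developmental cells 3 members were higher. CYP26A1 was higher by 3.58 ± 0.26 on the log2 scale (adjusted p = 4.87e-07). Its levels in pools A and B were 24.5 and 30.8 CPM in developmental against 1.34 and 1.96 in somatic cells on D9, and 76.3 and 120 against 9.26 and 5.84 CPM on D11. On D13 they were 106 and 26.8 against 5.12 and 4.91 CPM, and on D15 7.01 and 20.1 against 0.876 and 4.36 CPM. It was higher in all 7 pools that had at least 3 UMIs in both classes, by 4.61 to 20.7 times. The lowest of these folds was that of pool B on D15, where the somatic level rested on 12 UMIs and the developmental cells with no UMI of the mesendoderm markers, described further on, were at 5.33 CPM. Cells that lay between the classes held CYP26A1 at 8.44 and 19.1 CPM on D9, less than developmental cells. They held more than developmental cells on D11 (124 and 199 CPM), D13 (239 and 61.0 CPM) and D15 (34.3 and 76.7 CPM). These cells were not part of the test.

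DHRS3 was higher by 2.54 ± 0.27 (adjusted p = 6.73e-06), again in 7 of 7 such pools, with 18.1 and 16.1 CPM in developmental and 3.28 and 3.61 CPM in somatic cells on D9. CRABP1 was higher by 2.12 ± 0.34 (adjusted p = 0.000147) and in 8 of 8 pools, by 2.16 to 17.3 times. On D11 it stood at 170 and 136 CPM in developmental and 47.7 and 10.9 CPM in somatic cells, and on D13 at 168 and 159 against 9.72 and 51.4 CPM. On these days the somatic cells of the pool with more CRABP1 also had more EPCAM, an epithelial marker of the developmental list (43.3 and 10.9 CPM on D11, 8.08 and 31.9 on D13), and more POU5F1 (207 and 43.7 CPM, and 36.2 and 204). On D15 it was the reverse, with CRABP1 at 49.1 and 37.0 CPM in somatic cells, EPCAM at 16.6 and 28.7 CPM and POU5F1 at 72.7 and 176 CPM. The part of developmental RNA in the CRABP1 level of somatic cells, and so in the range of folds, was not tested.

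On D7, before these days, CRABP1 was lower in developmental than in somatic cells in both pools, 15.8 against 24.8 CPM in pool A and 16.7 against 34.8 CPM in pool B. Only 235 cells of D0 to D7 were inside the developmental limits. On that day the cells that carried CRABP1 had more COL1A1, a fibroblast collagen, than the others, 1340 against 525 CPM in pool A and 5160 against 1326 CPM in pool B. In all 6 pools of D11 to D15 the difference was the other way round, from 707 against 1350 CPM in pool A of D11 to 152.5 against 648.5 CPM in pool B of D15.

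The other 4 members were lower in developmental than in somatic cells. CRABP2 was lower by −2.40 ± 0.10 on the log2 scale (adjusted p = 4.34e-08), with 149 and 148 CPM against 890 and 818 CPM on D9, and lower in 8 of 8 pools. RARRES2 was lower by −2.28 ± 0.15 (adjusted p = 3.35e-07) and in 8 of 8 pools, with 37.3 and 42.6 CPM against 268 and 225 CPM on D9 and 109 and 117 CPM against 379 and 622 CPM on D15. In somatic cells RARRES2 was at 7.64 and 8.06 CPM on D0, 170 and 202 on D5 and 358 and 325 on D7, so that its rise was present within the cells high in fibroblast markers.

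ALDH1A2 was lower by −3.29 ± 0.43 (adjusted p = 3.41e-05) and in 8 of 8 pools, and its level in developmental cells was at most 0.604 CPM from D9 on. RARB was lower by −2.02 ± 0.22 (adjusted p = 7.44e-06) and in 7 of 7 pools with at least 3 UMIs in both classes, at 0.317 to 0.656 CPM in developmental and 0.979 to 3.19 CPM in somatic cells of these 7. The median depth per cell differed between the classes, for example 69215 UMIs in developmental and 44517 in somatic cells of pool A of D11; CPM allows for this, and its part in the result was not tested.

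**Figure D3:**
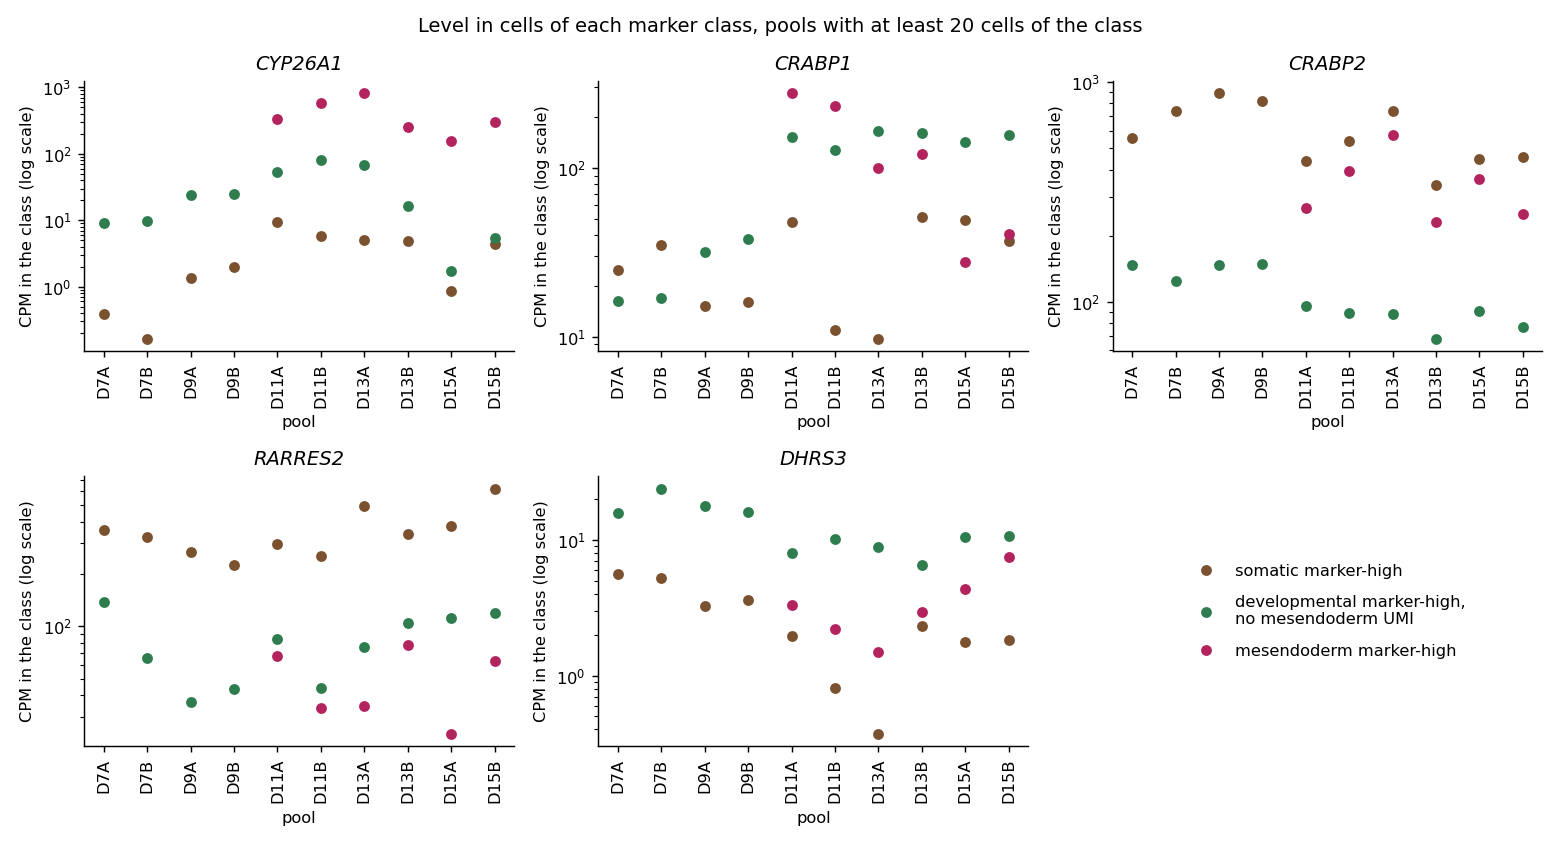
Level of CYP26A1, CRABP1, CRABP2, RARRES2 and DHRS3 (CPM in the class, log scale) by pool from D7 to D15, with 1 point per class and pool for somatic marker-high cells, developmental marker-high cells with no mesendoderm UMI and mesendoderm marker-high cells, where a pool had at least 20 cells of the class. CYP26A1 is highest in mesendoderm marker-high cells, at 814 CPM in pool A of D13, and CRABP2 and RARRES2 are highest in somatic cells in every pool shown.

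On D11 to D15, 858 cells had at least 3 UMIs of a list of mesendoderm markers, genes of the early embryonic layers that form endoderm and mesoderm, and at most 19 UMIs of the fibroblast markers, against at most 15 in developmental cells and at least 20 in somatic cells. No minimum of developmental marker UMIs was set for them, so some lay outside the developmental class. On these days 451 cells with at most 19 fibroblast marker UMIs lay at or just below the mesendoderm limit. The 858 cells were set against the 7284 developmental cells with no UMI of the mesendoderm list. In these 6 pools 4 of the 6 members tested were called, against 37.0% of the 14557 genes tested, and ALDH1A2 had too few counts to be tested. CER1, one of the markers that defined the class, was at 1105 to 1820 CPM in the first and 2.23 to 18.7 CPM in the second, and POU5F1, a pluripotency factor whose RNA was also transfected until day 8, was lower in the first in all pools, for example 289 and 304 against 1873 and 836 CPM on D13.

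CYP26A1 was higher in the mesendoderm marker-high cells by 3.98 ± 0.51 on the log2 scale (adjusted p = 0.000337). Its levels were 339 and 591 CPM against 52.8 and 80.7 CPM on D11, 814 and 250 against 68.9 and 16.3 CPM on D13 and 156 and 302 against 1.73 and 5.33 CPM on D15. It was higher in 6 of 6 pools, by 6.43 to 89.8 times. These cells were 5.26% and 4.88% of the cells of the pools of D11 and held 25.4% and 26.5% of their CYP26A1 UMIs. On D15 they were 4.73% and 6.45% of cells and held 73.5% and 67.2% of them.

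On D11 most of the CYP26A1 UMIs were thus outside the mesendoderm marker-high cells, and on D15 most were inside them. The cells outside included some with mesendoderm marker UMIs below the limit. Developmental cells with no mesendoderm UMI held 27.3% and 39.9% of the CYP26A1 UMIs on D11, and 15.8% and 17.0% on D15. The 5% of cells with most CYP26A1 held 78.6% and 74.3% of its UMIs on D9, 52.8% and 59.6% on D11, 79.0% and 73.9% on D13 and 92.4% and 81.1% on D15. This share is larger where fewer cells have any UMI, and D11, where it was lowest, was the day with most carriers. On D15 the 5% of cells with most CRABP1 held 14.7% and 16.3% of the CRABP1 UMIs. On D15 developmental cells with no mesendoderm UMI were at 1.73 and 5.33 CPM, and somatic cells at 0.876 CPM (1 UMI in 25 cells) and 4.36 CPM (12 UMIs in 130 cells). The difference between these cells was not tested. Cells that carried CYP26A1 on D15 in pool B had CER1 at 702 CPM against 47.5 CPM in the others.

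CRABP2 was also higher in these cells, by 1.88 ± 0.14 (adjusted p = 3.25e-05), with 266 and 393 CPM against 95.7 and 88.9 CPM on D11, 576 and 231 against 87.6 and 67.8 CPM on D13 and 362 and 252 against 90.7 and 76.6 CPM on D15. It was 2.78 to 6.58 times as high, in 6 of 6 pools. COL1A1 was higher in them as well, at 294 and 99.1 against 272 and 74.9 CPM on D11, 186 and 254 against 65.3 and 200 CPM on D13 and 137 and 140 against 51.7 and 84.1 CPM on D15, and the part of fibroblast RNA in the result was not tested. The mesendoderm marker-high cells were also held to both developmental limits (at least 8 developmental and at most 15 somatic marker UMIs), chosen after seeing the data. This changed both marker limits at once. CRABP2 was then higher by 1.5 and CYP26A1 by 3.78.

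DHRS3 was lower in the mesendoderm marker-high cells, by −1.50 ± 0.24 (adjusted p = 0.000914), and RARRES2 by −0.90 ± 0.21 (adjusted p = 0.00652), each in 6 of 6 pools. RARRES2 was no longer called when the cells were held to both developmental limits (−0.56, adjusted p = 0.0238). CRABP1 was not called (−0.60 ± 0.42, adjusted p = 0.255): it was 1.81 times as high in both pools of D11 and 0.195 to 0.756 times as high in the 4 later pools. RARB was not called either (2.01 ± 0.76, adjusted p = 0.0506), and it rested on few UMIs, 7 and 11 in these cells on D15.

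**Figure D4:**
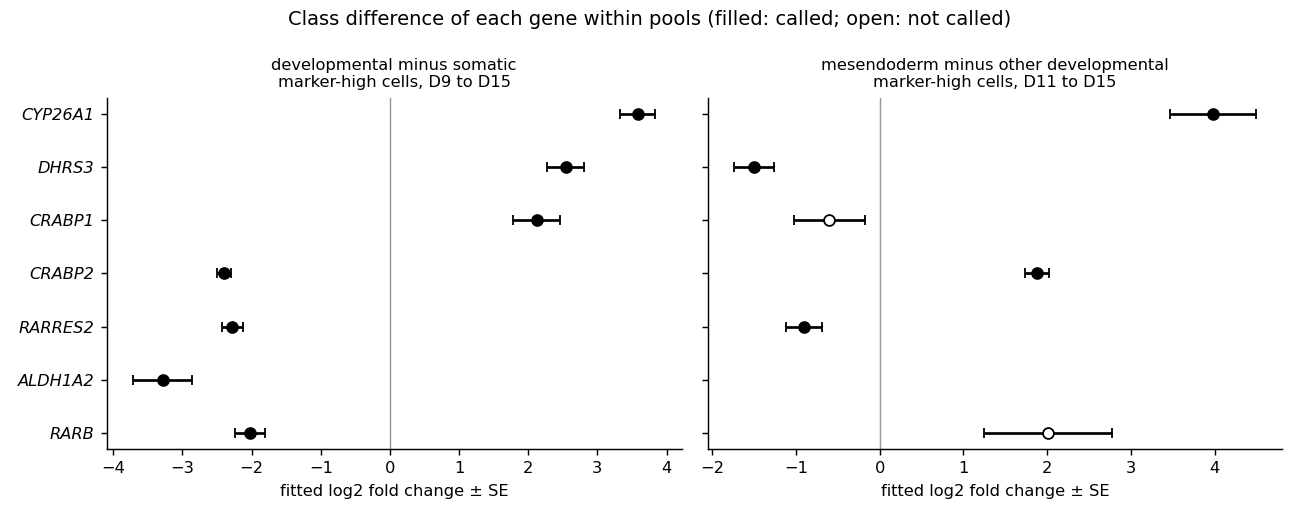
Fitted log2 fold change of each member with its SE (bars), filled where called and open where not. The first panel is developmental minus somatic marker-high cells on D9 to D15 (8 pools). The second is mesendoderm marker-high cells minus developmental cells with no mesendoderm UMI on D11 to D15 (6 pools). CYP26A1 is above 0 in both, CRABP2 is below 0 in the first and above 0 in the second, and RARRES2 is below 0 in both.

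A list of 56 further genes of the pathway was followed to place the members, of which 54 were tested. On D15 against D0, 13 rose and 15 fell (51.9% called, against 51.5% of all genes), and on D9 to D15 against D3 to D7 15 rose and 16 fell (57.4% against 47.3%). From D3 to D5 3 rose and 0 fell (5.56% against 2.85%), among them ALDH1A3, a further retinaldehyde dehydrogenase, and CMKLR1, the receptor of chemerin. From D0 to D3 4 rose and 6 fell (18.5% against 19.0%). None was called by edgeR from D11 to D13 or from D13 to D15, each with 18 at an unadjusted p below 0.05. None of the 6 cofactors tested was called on D15 against D0 (4 at an unadjusted p below 0.05), and neither was CYP26B1 or CYP26C1, the other breakdown enzymes (0 at an unadjusted p below 0.05). DESeq2 was not run on this list.

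Among genes of uptake and storage 5 of 10 rose and 1 fell on D15 against D0, with 51.5% of all genes called in either direction. ALDH1A1, a retinaldehyde dehydrogenase of fibroblasts, fell from 67.6 and 63.2 to 1.08 and 1.43 CPM (−5.92 ± 0.43). FABP5, which can carry retinoic acid to a different nuclear receptor, rose from 79.2 and 81.1 to 873 and 869 CPM (3.19 ± 0.21), and its rise was already called at D3 (2.45 ± 0.20).

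Of 13 responders and targets 8 fell on D15 against D0 and RET rose, where 5194 of all 21179 genes fell and 5716 rose, and no test was made of the group. NR2F2, an orphan nuclear receptor, fell from 258 and 245 to 3.74 and 6.23 CPM (−5.88 ± 0.35), with a called rise from D9 to D11 (1.33 ± 0.28). NR2F1 (−3.77 ± 0.30), MEIS1 (−4.93 ± 0.36) and MEIS2 (−2.73 ± 0.29), transcription factors induced by retinoic acid in embryos, fell too. Of the receptors RARG fell (−2.01 ± 0.50, adjusted p = 0.00323), and RXRA and RXRB fell and RXRG rose. RDH14, a retinol dehydrogenase, was called only on D9 to D15 against D3 to D7 (−0.48 ± 0.13).

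Between the cell classes of D9 to D15, 9 of the 42 list genes tested were higher and 21 lower in developmental than in somatic cells (71.4% called, against 67.1% of all genes). LRAT, which stores retinol as an ester, was higher (3.43 ± 0.32) and CYP26B1 was lower (−4.99 ± 0.39), the reverse of CYP26A1. In mesendoderm marker-high cells 15 of 40 were higher and 3 lower (45.0% called, against 37.0% of all genes). RXRG (5.01 ± 0.38), MEIS2 (3.30 ± 0.51), NR2F1 (2.47 ± 0.37), ALDH1A1 (2.18 ± 0.28), MEIS1 (1.51 ± 0.39) and ALDH1A3 (1.14 ± 0.26) were higher, and RBP7, LRAT and RDH12 were lower. NR2F2 (0.084 ± 0.30, adjusted p = 0.842) and RARG (−0.36 ± 0.29, adjusted p = 0.321) were not called by edgeR. Of the higher genes, MEIS1 (−3.71 ± 0.42), MEIS2 (−3.41 ± 0.46), NR2F1 (−4.36 ± 0.25) and ALDH1A1 (−2.55 ± 0.20) were lower in developmental than in somatic cells. The mesendoderm marker-high cells could hold more fibroblast marker UMIs than the developmental cells and had more COL1A1 in 6 of 6 pools. The part of fibroblast RNA in these differences was not tested.

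**Figure D5:**
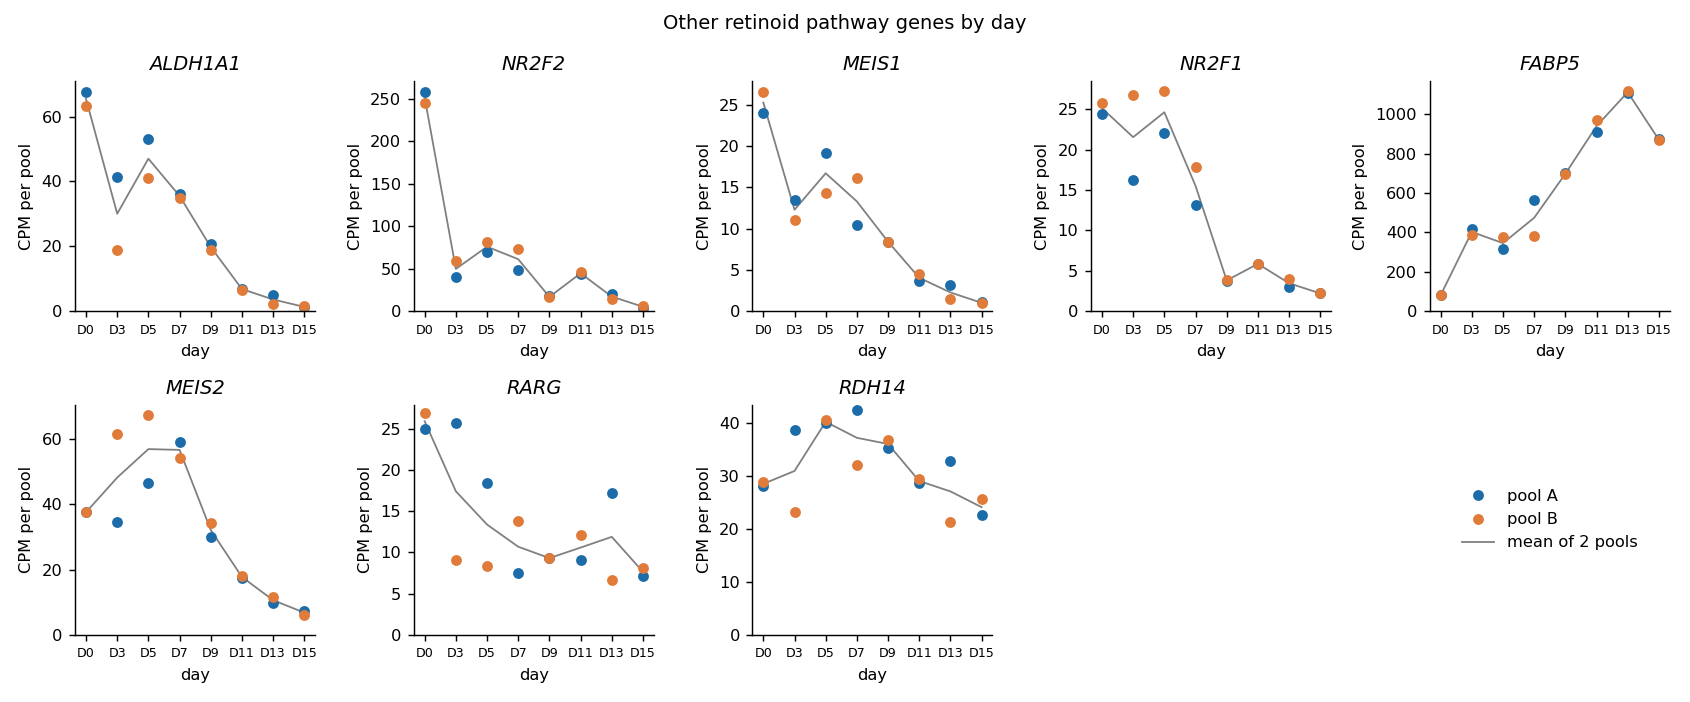
Level (CPM per pool, linear scale from 0) by day of 8 genes of the pathway list that met the rule for naming, with 1 point per pool and a line through the mean. FABP5 rises, and ALDH1A1, NR2F1, NR2F2, MEIS1 and MEIS2 fall towards D15.

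The genes whose course over the 16 pools was most like that of each member were found by Pearson's r of log2(CPM + 1) among 6119 genes, as a description, since pools of 1 day and all pools of the late days share much. For CYP26A1 they were MMP9 (r = 0.991), ACTA1 (0.986) and PLBD1 (0.985), and for RARRES2 TNNT2 (0.964), FLT1 (0.928) and OLFM2 (0.919). For CRABP1 they were TNNC1 (0.982) and PHC1 (0.977), and for CRABP2 SPATA20 (0.986), MMP24-AS1 (0.977) and CALHM2 (0.977). For DHRS3 they were C9orf135 (0.978), APELA (0.955) and SYT6 (0.951), and for ALDH1A2 CCL2 (0.870), FRZB (0.856) and PLLP (0.838). RARB, with its low counts, had no gene above 0.884 (PPP1CB).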

How the data were processed

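The deposited single-cell RNA-sequencing files hold raw UMI counts, which the authors made with Cell Ranger 2.2 for 33694 genes of GRCh38 in every barcode, and no normalization was applied. Of 22 libraries, 6 pairs were aliquots of 1 pool, cryopreserved apart, and were added together, which gave 16 pools. Barcodes under 1000 genes or over 10% mitochondrial UMIs were dropped. Doublets were not removed. Libraries shared a median of 0.361% and at most 1.63% of their barcodes.

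UMIs were summed per pool and tested with edgeR 4.0.16 (quasi-likelihood, TMM, filterByExpr, all 16 pools in 1 fit, Benjamini-Hochberg over all genes tested) in R 4.3.3. DESeq2 1.42.0 was an alternative. A standard error is the log2 fold change divided by the square root of F. The depth per pool, 33181614 to 180056814 UMIs, sets the precision. In simulated counts, every gene had the same fixed spread between pools, which was not taken from these data. There, D11 against D9 recovered 1, 21, 48 and 50 of 50 genes changed 2-, 4-, 8- and 16-fold among 21179. It gave 0 false calls among the unchanged genes. At that spread a 2-fold change was mostly missed with 2 pools per day. In counts simulated with the same spread, the test between developmental and somatic cells recovered 28 of 50 genes changed 2-fold. It recovered 50 of 50 at each larger fold among 15954, with 2 false calls. In the data, DHRS3 had an SE of 0.18 and was called at log2 values of 1.00 (D5) and −1.02 (D11). The recovery is thus that of the simulation only.

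For shares of cells, each cell was thinned to 5000 UMIs. Classes were cut on these thinned cells: developmental with at least 8 developmental and at most 15 somatic marker UMIs, somatic with at least 20 and at most 4, mesendoderm with at least 3 mesendoderm and at most 19 somatic marker UMIs. These limits were chosen after the data were seen. Class sums of at least 20 cells were tested with the pool as a block, leaving out the marker genes. Other steps used Python 3.11.15 with pandas 2.3.3, numpy 2.4.6 and scipy 1.17.1, and figures matplotlib 3.10.9.

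The 7 members and all gene lists were chosen with earlier results of these data known. From the pathway list, genes called in at least 1 of the 10 comparisons between days and reaching 20 CPM in both pools of a day were named. Of the 9 that met this rule 8 are described, and some other items are not reported here. Other genes were named for illustration after their values were seen: ALDH1A3, CMKLR1, RET, RXRA, RXRB, RXRG, LRAT, RBP7, RDH12, CYP26B1 and CYP26C1. The like patterns were the 3 genes with the highest r for each member, among genes that reach 20 CPM in both pools of a day, without Y-linked genes and XIST. Alternatives were DESeq2, its size factors in edgeR, other filters on genes and cells, sums thinned to the smallest total, only the pools of the days compared, the pool letter as a block, stricter class limits, other thinning, a looser call (adjusted p under 0.05, any fold), and each pool left out in turn. The pool letters do not pair pools across days: the deviations of same-lettered pools correlated at −0.233 to 0.599 over 28 pairs of days (median −0.0151).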

Additional observations from a re-analysis of the deposited data

Results flagged for a closer look

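CRABP1 differed in direction between days within the pools. Developmental minus somatic marker-high cells gave a mean log2 difference of 2.87 over the 2 pools of D13 and −0.86 over the 2 pools of D7, with both pools of each day on the same side. Mesendoderm marker-high cells minus developmental cells with no mesendoderm UMI gave 0.86 on D11 and −2.15 on D15, again with both pools of each day on the same side. The difference between the days was not tested.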

How the results depend on the processing

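With 2 pools per day the test between days recovered few 2-fold changes at the fixed spread of the simulation, and members near the threshold moved. Between neighbouring days 9 calls of members were made of 49 possible, 17 with DESeq2 and 14 at an adjusted p below 0.05 with any fold, and 10 with the pool letter as a replicate block, which does not pair the pools. The shares of all genes called under these alternatives are not given here. A larger count of members can thus not be told apart from more calls among all genes. Leaving out 1 pool at a time gave 6 to 12 of these calls, 5 on D15 against D0, 4 to 5 on D3 to D7 against D0, 6 on D9 to D15 against D3 to D7, 7 between developmental and somatic cells and 3 to 4 in mesendoderm marker-high cells. Without D3, chosen after seeing the data, the value on D9 to D15 against D3 to D7 changed direction for RARRES2 (−0.84) and RARB (−0.0279). Of the other member values under the alternatives, 1245 kept their direction and side of the threshold, 32 passed it and 34 lost it. Leaving out 1 pool, which includes pools of days not compared, gave 697 of the 1245 and 25 of the 34.

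The shares of cells depend on depth. Thinned to 2000 UMIs they were 9.86% for CYP26A1 on D11, 30.2% for RARRES2 on D7, 0.231% for RARB on D5, 22.7% for CRABP1 on D15, 81.6% for CRABP2 on D0 and 2.46% for DHRS3 on D9. Without thinning they were 46.9%, 92.0%, 2.70%, 90.1%, 99.95% and 39.8%, and 13.4% for ALDH1A2 on D7. With all deposited barcodes CRABP1 on D15 was at 44.5%. Without a block in the class test, 3 members were called in mesendoderm marker-high cells. The causes were not tested.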
